A study of Mus musculus with 4 samples.

Results

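The nuclear genes of the oxidative phosphorylation system were examined in primary 4T1 tumors and in tumor regulatory T cell (Treg) preparations. They were taken as the protein-coding mouse genes whose symbols begin with Nduf, Uqcr, Atp5, Cox4i, Cox5, Cox6, Cox7 or Cox8, together with Sdha, Sdhb, Sdhc, Sdhd and Cyc1. The rule found 94 genes among 21924 protein-coding genes of the annotation. They were grouped into respiratory complex I with 46 genes, complex II with 4, complex III with 9, complex IV with 18 and complex V with 17. The Nduf genes include 8 assembly factors (Ndufaf genes), which help to build complex I and are not part of it.

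All mice were Foxp3+EGFP Balb/c females, 8 weeks of age at inoculation, that carried orthotopic tumors of 4T1 cells, a mammary carcinoma line of the same strain. A splice-modulating oligomer (SMO) is an antisense molecule that binds pre-mRNA and alters its splicing. The Control SMO group and the LFPRLR SMO group, whose oligomer is directed at the long form of the prolactin receptor, were treated for 12 days. The GEO labels word the treatment as one of the injected cells, whereas the study's methods describe treated mice. RNA from 6 mice was combined per treatment and depleted of rRNA, which gave 1 whole tumor library for each SMO. Tregs were sorted by Foxp3-EGFP from a further set of tumors, again with 6 mice per treatment. Each group is therefore a single pooled sample with no replicate, and the ratios below describe 2 libraries, with no SD and no p-value. The whole tumor holds all cell types of the tumor, so that fewer cells of a type and less RNA per cell cannot be told apart.

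Oxidative phosphorylation takes place at the inner mitochondrial membrane. Complex I accepts electrons from NADH and complex II from succinate, and both pass them to coenzyme Q. Complex III hands them on to cytochrome c and complex IV to oxygen, and the proton gradient that complexes I, III and IV build drives ATP synthesis by complex V. Most subunits are encoded in the nucleus, and a small set of central subunits is encoded by mitochondrial DNA, so that assembly of every complex but complex II draws on both genomes.

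Levels were deposited as FPKM (fragments scaled to transcript length and to the mapped fragments of the library) of assembled transcripts, and were summed over the transcripts of a gene. A gene to which no transcript was assigned is called unlisted, which does not show that it was not expressed. The values listed for tumor Tregs were identical under both SMO labels for 4838 of 4838 transcripts, so they were counted as 1 set and no treatment comparison was made. None of 9 protein-coding T cell markers was listed in that set or in either whole tumor library, including Foxp3, the gene behind the sort, and Cd3e and Cd4. All 11 monocyte and macrophage markers were listed in it, with a summed FPKM of 460.2. Epithelial markers of the 4T1 cells were listed in it for 5 of 6 genes (summed FPKM 19.33) and fibroblast markers for 3 of 6 (24.21). These values are therefore called the sorted set below. Read counts are not given in the sources used here, so mean read depth is given in their place. Within a library depth largely follows FPKM, and it gives no precision for a ratio between single pools. For the listed genes of oxidative phosphorylation, depth was 2.106 to 469.1 with Control SMO (median 27.75), 1.396 to 345.4 with LFPRLR SMO (median 18.06) and 0.4484 to 17.59 in the sorted set (median 4.281).

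Genes of oxidative phosphorylation were among the more abundant transcripts of the tumors. They were listed for 80 of 94 genes with Control SMO, 81 with LFPRLR SMO and 72 in the sorted set. The median FPKM over the listed genes was 15.5 with Control SMO, 10.51 with LFPRLR SMO and 4.754 in the sorted set. The medians of all listed protein-coding genes were 5.402, 5.519 and 3.279 in the same order. The median gene of the pathway thus lay above 86.5% of listed genes with Control SMO, above 77.5% with LFPRLR SMO and above 66.0% in the sorted set. FPKM is a level per length, but whole tumor and sorted values were normalized separately by different programs, so their levels stand side by side only as a description.

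The complexes differed in level. Complex IV was highest, with a median FPKM of 40.3 with Control SMO, 26.49 with LFPRLR SMO and 9.512 in the sorted set. Complex V followed with 30.49, 18.2 and 6.257. Complex III stood at 12.03, 10.26 and 6.955 and complex I at 10.12, 7.696 and 3.318. Complex II stood at 8.721, 7.134 and 4.754. The order of complexes IV, V, III, I and II was shared by both whole tumor libraries, whereas in the sorted set complex III stood above complex V and complex I was lowest. The listed genes of complexes II (4 of 4) and IV (11 of 18) did not overlap in either whole tumor library. They were at 6.253 to 12.88 against 16.56 to 244.4 under Control SMO and 6.421 to 8.946 against 10.51 to 194.3 under LFPRLR SMO. The unlisted complex IV genes have no level and are left out of its range and its median. The range of complex I reached into those of all others.

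**Figure D1:**
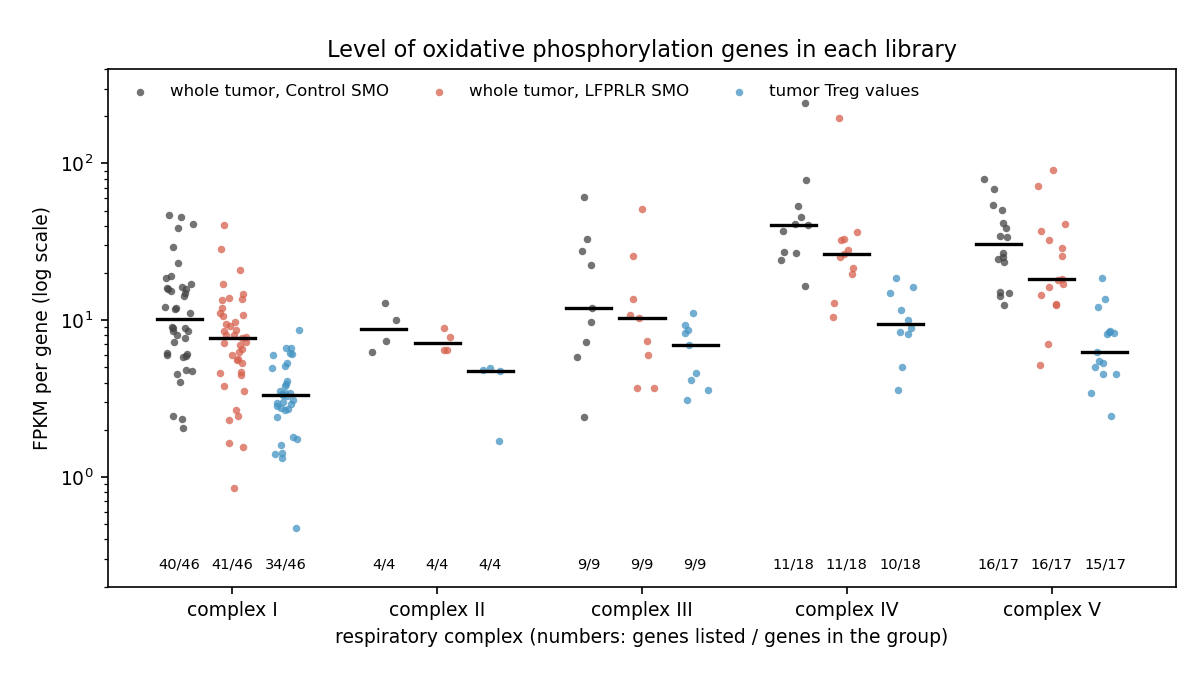
FPKM of each listed gene (points, log scale) by respiratory complex in the whole tumor with Control SMO, the whole tumor with LFPRLR SMO and the sorted tumor Treg values, with the median as a black bar and the number of genes listed below. Complex IV has the highest median throughout, complex III (6.955) stands above complex V (6.257) in the sorted set only, and each complex has a lower median with LFPRLR SMO than with Control SMO.

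The highest gene of the pathway in both whole tumor libraries was Cox6c, which encodes a small nuclear subunit of complex IV, at an FPKM of 244.4 with Control SMO, 194.3 with LFPRLR SMO and 14.87 in the sorted set. Atp5a1 and Atp5b, the alpha and the catalytic beta subunit of the ATP synthase head, came next by the mean of both libraries, although Cox8a (78.1) stood above Atp5b with Control SMO. Atp5a1 was at 79.36, 71.78 and 12.09 and Atp5b at 68.65, 90.83 and 18.49. In the sorted set the first place was held by Cox4i1, the main regulatory subunit of complex IV, at 18.58. Levels of single genes followed each other more closely between the 2 whole tumor libraries (Pearson's r of log2 FPKM 0.844, Spearman's rho 0.815, 79 genes) than between Control SMO whole tumor and the sorted set (r 0.474, rho 0.458, 71 genes). These are correlations across genes, which share library and annotation and are not replicates.

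The comparison of LFPRLR SMO with Control SMO asks whether the 2 tumor pools differed in the expression of these genes. The ratio was log2((LFPRLR SMO FPKM + 0.1)/(Control SMO FPKM + 0.1)), for genes that both libraries listed and whose FPKM reached 1 in either. It could be formed for 79 of the 94 genes. Of these, 66 (83.5%) were below their Control SMO level, and the median log2 ratio was -0.44, a level 1.36-fold lower. For all 8490 protein-coding genes the share below was 55.3% and the median -0.09. By a factor of 2, 16 genes of the pathway (20.3%) were lower with LFPRLR SMO, against a background of 10.9% of all genes, and 2 (2.53%) were higher, against 11.3%. By a factor of 1.5, 36 were lower (background 22.6%) and 4 were higher (background 21.5%). The gene just inside the factor of 2 was Ndufb6 at -1.01 and the one just outside was Atp5mpl at -0.99. With transcripts under 300 bases left out, 76 genes remained, with a median of -0.44, 63 below, 12 lower (background 10.5%) and 2 higher (background 11.1%) by a factor of 2. Of the 16 lower genes, 8 were still past the factor with exon-weighted values (each transcript weighted by the share of the longest annotated transcript it covered), 7 against genes of like length and 8 with aligned bases (read depth times length). Cox5b and Ndufa3 were past it under each alternative that gave them a value, as was Ndufa12, whose ratio is limited as described below.

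Assembled length moved with this result. The genes of oxidative phosphorylation encode small proteins, and 66 of 79 (83.54%) had a mean assembled length under 1200 bases, against 22.05% of all genes. Short genes in general were lower with LFPRLR SMO. The median ratio of all genes was -0.63 under 400 bases, -0.45 from 400 to 499, -0.53 from 500 to 599, -0.27 from 600 to 799 and -0.17 from 800 to 1199. It was -0.13 from 1200 to 1999 bases and -0.02 from 2000 bases. Among all 1872 genes under 1200 bases, 62.8% were below Control SMO and 16.4% were lower by a factor of 2. Of the 66 pathway genes of that length, 57 (86.4%) were below and 15 (22.7%) were lower by the factor, with a median of -0.53 against -0.23 for all genes of that length. Against the median of all genes in the same length range, the pathway genes stood at -0.17, with 49 of 79 below it. On that scale 7 (8.86%) were lower by a factor of 2, no more than the 8.9% of all genes. The part of length in the lower levels was not tested further.

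**Figure D2:**
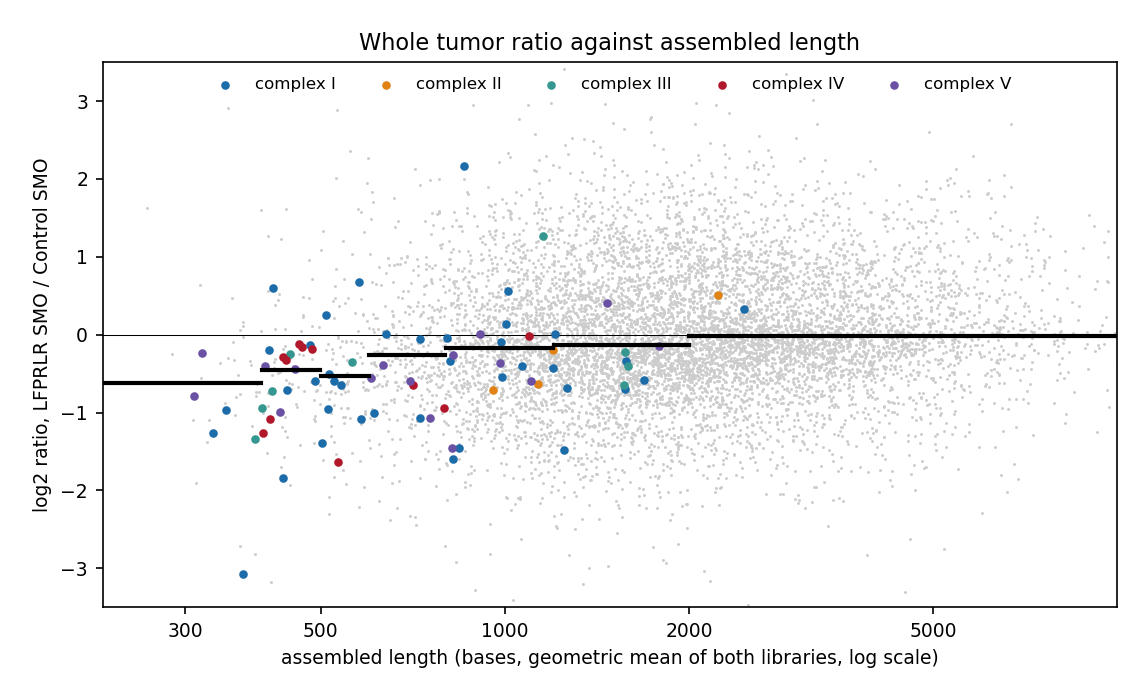
Log2 ratio of LFPRLR SMO over Control SMO against assembled length (log scale) for all protein-coding genes (grey) and the genes of each complex (colors), with black bars for the median of all genes in each length range. The bars go from -0.63 under 400 bases to -0.02 from 2000 bases, and most colored points lie on the left, under 1200 bases.

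Genes with 1 assembled transcript of like length in both libraries (within 10%) are matched for the number and length of their transcripts. Their exons and ends were not matched and can differ. There were 34 such pathway genes, and 31 of them (91.18%) were below Control SMO, with a median of -0.40. Of all 1017 genes of this kind, 77.68% were below, with a median of -0.24. Of the 398 under 1200 bases, 75.88% were below, with a median of -0.31. By a factor of 2, 2 of the 34 pathway genes (5.88%) were lower, close to the 5.53% of the genes under 1200 bases and above the 2.56% of all genes of this kind.

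Complex I had a median ratio of -0.55, with 30 of 39 genes below Control SMO, 10 lower and 1 higher by a factor of 2. Of all genes 10.9% were lower and 11.3% higher, and of all genes under 1200 bases 16.4% were lower. Without transcripts under 300 bases, complex I had 7 of 37 genes lower and 0 higher (background 10.5% and 11.1%). Its 7 core subunits, which carry the flavin and the iron-sulfur clusters of the electron path, had a median of -0.33 with none lower by the factor. The accessory subunits, which surround and stabilize the core, had a median of -0.66, with 23 of 28 below and 9 lower. Without transcripts under 300 bases 6 of 26 accessory subunits were lower. The 4 assembly factors with a ratio had a median of -0.21 and 1 lower. Against genes of like length the accessory subunits stood at -0.26 and the core at -0.16.

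Ndufa12, an accessory subunit on chromosome 10 (94198720-94221443, mm10), had the lowest ratio of the pathway. Its FPKM was 45.56 under Control SMO and 5.325 under LFPRLR SMO (log2 ratio -3.07), and it was unlisted in the sorted set. The 2 libraries did not measure the same part of the gene. The Control SMO transcript, 256 bases long, covered bases 277 to 532 of the longest annotated transcript (1386 bases), and the LFPRLR SMO transcript covered bases 644 to 975 within its last exon. The ratio of Ndufa12 therefore compares separate stretches, and without transcripts under 300 bases none could be formed.

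Ndufa3 was at 38.98 in the Control SMO pool and 10.85 in the LFPRLR SMO pool (log2 ratio -1.84), and at 2.42 in the sorted set. Ndufs4, an accessory subunit of the NADH-oxidizing arm whose loss in mice causes a Leigh-like encephalopathy, was at 14.35 and 4.674 (-1.60), and at -0.93 exon-weighted, short of the factor. Ndufa7 was at 15.87 and 5.968 (-1.40), at -0.87 against genes of like length, and at 6.603 in the sorted set. The ratios of these 3 genes as deposited were the same without transcripts under 300 bases. The next genes lay closer to the limit. Ndufc2 was at 18.5 and 8.695 (-1.08), Ndufb8 at 16.31 and 7.696 (-1.07) and Ndufb6 at 7.265 and 3.552 (-1.01). These 3 encode subunits of the membrane arm. Ndufaf4, an assembly factor, was at 4.745 and 1.636 (-1.48), and at -0.82 when only transcripts that share an intron with the gene were used. Ndufa1, a membrane arm subunit on the X chromosome, was at 15.97 and 6.591 (-1.26), but its only Control SMO transcript was 283 bases long, and it stood at -0.64 against genes of like length.

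The highest complex I genes apart from Ndufa12 were closer between libraries. Ndufa4, first assigned to complex I and now known to associate with complex IV, was at 46.57 with Control SMO, 28.34 with LFPRLR SMO and 4.11 in the sorted set (log2 ratio -0.71). Ndufb4 was at 41.07, 20.98 and 2.979 (-0.97). Both were lower with LFPRLR SMO by less than a factor of 2.

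The call of 2 complex I genes depended on a short transcript. Ndufs8, a core subunit that holds iron-sulfur clusters (chromosome 19, 3908863-3912774), was at 8.967 in the Control SMO pool and 40.47 in the LFPRLR SMO pool, a log2 ratio of 2.16. Of the LFPRLR SMO level, 84.74% came from a transcript of 223 bases at the 3′ end of the gene with an FPKM of 34.3. Without it the level was 6.176 and the ratio -0.53, so the direction of Ndufs8 turned. With all transcripts kept Ndufs8 stayed above 0, at 0.83 exon-weighted and 0.70 with aligned bases, short of the factor in both. Ndufb11, an X-linked accessory subunit, was at 29.16 and 10.6 (-1.45), and 73.85% of the Control SMO level came from a transcript of 278 bases. Without it the Control SMO level was 7.624 and the ratio 0.47. With all transcripts kept Ndufb11 stayed below 0, at -0.52 exon-weighted and -0.66 with aligned bases, short of the factor in both.

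**Figure D3:**
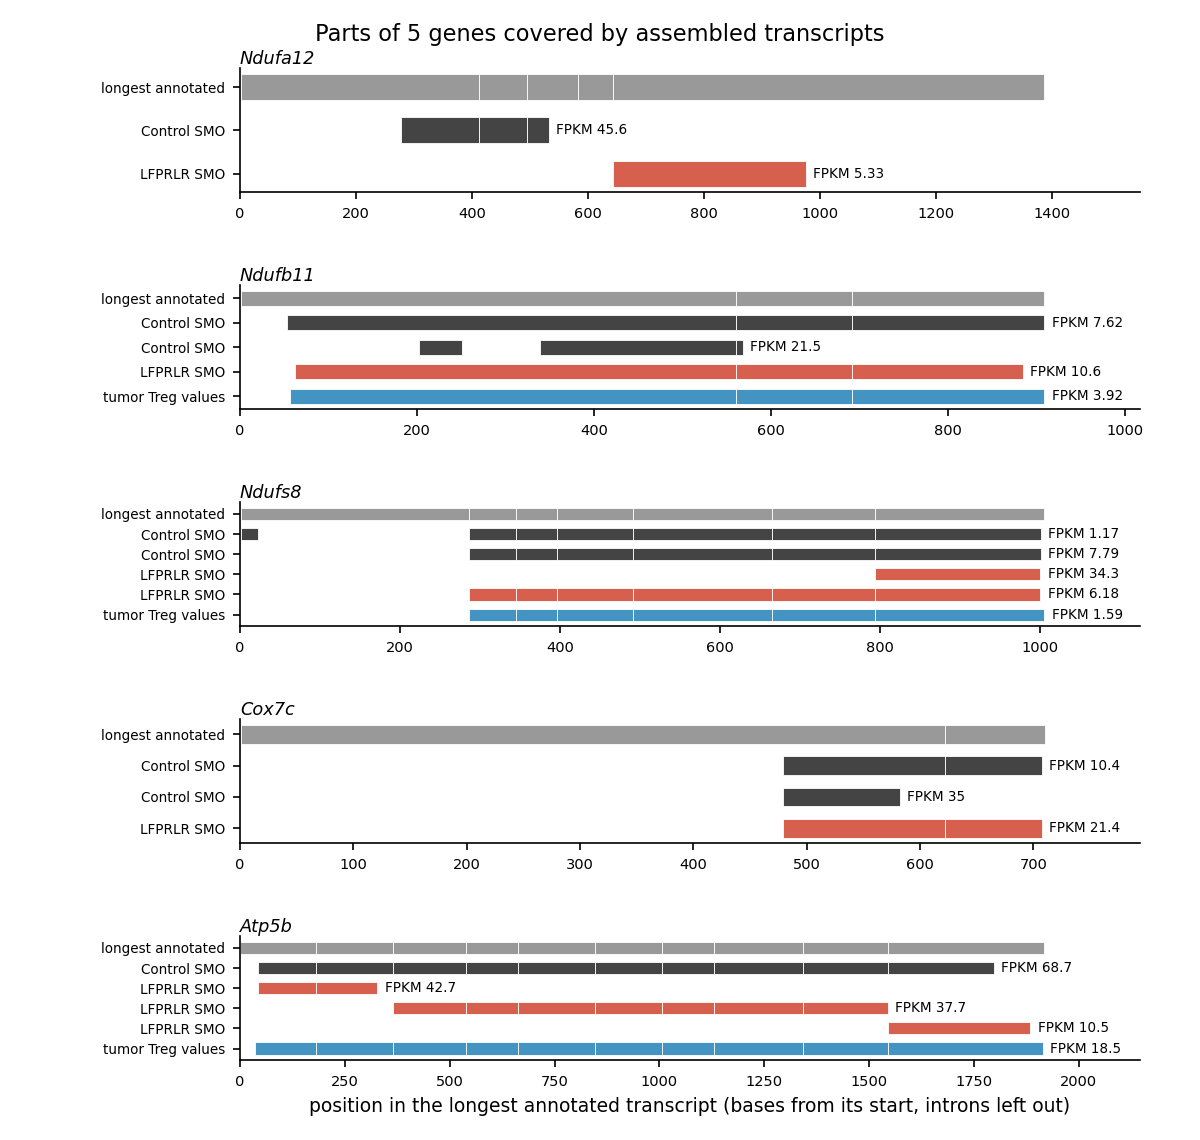
Position of assembled transcripts (bars, with FPKM) within the longest annotated transcript of 5 genes, in bases from its start with introns left out, for both whole tumor libraries and for the sorted tumor Treg values, with white lines at exon borders. The Ndufa12 transcripts of the 2 whole tumor libraries share no base, and short transcripts of high FPKM are present in 1 whole tumor library only for Ndufb11, Ndufs8, Cox7c and Atp5b.

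Complex II, which has 4 subunits, all encoded in the nucleus, had a median ratio of -0.42 and no gene past a factor of 2. Sdhb, the iron-sulfur subunit, was at 12.88 with Control SMO, 7.834 with LFPRLR SMO and 4.734 in the sorted set (log2 ratio -0.71). Sdhc, a membrane anchor, was at 10.04, 6.434 and 4.774 (-0.63). Sdha, the flavoprotein that oxidizes succinate, was at 6.253, 8.946 and 1.698 (0.51). By this sum Sdha stood above its Control SMO level while the other 3 stood below. Its LFPRLR SMO level added up 2 separate pieces of the gene at 2.997 and 5.949, each below the single Control SMO transcript. Exon-weighted, Sdha was at 6.225 and 4.699, so its direction turned. Sdha was also the longest, with a mean assembled length of 2231 bases against 954.8 for Sdhb.

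Complex III had a median ratio of -0.40, with 8 of 9 genes below Control SMO. Uqcrb was highest at 60.66 in the Control SMO pool and 50.87 in the LFPRLR SMO pool (log2 ratio -0.25), followed by Uqcrh, the hinge protein that binds cytochrome c1, at 32.99 and 25.76 (-0.36). Uqcr10, a small membrane subunit, was lower by the factor, at 27.58 and 10.84 (-1.34). It was not past the factor against genes of like length (-0.71), exon-weighted (-0.95) or with aligned bases (-0.92). The exception was Cyc1, which encodes cytochrome c1, the heme protein that passes electrons to cytochrome c (chromosome 15, 76343523-76346260). Cyc1 was at 2.418 with Control SMO, 5.951 with LFPRLR SMO and 8.656 in the sorted set, with a ratio of 1.27 in the opposite direction. With only the most abundant transcript Cyc1 was at 0.29, exon-weighted at 0.62 and with aligned bases at 0.63, short of the factor in each.

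Complex IV had a median ratio of -0.33 and all of its 11 listed genes were below Control SMO, but it stood at 0.12 against genes of like length, with 5 of 11 below. It was the only complex whose median turned direction on that scale. Cox5b, a zinc-binding subunit, was at 40.3 with Control SMO, 12.9 with LFPRLR SMO and 8.405 in the sorted set (log2 ratio -1.64). Cox8a, a small transmembrane subunit, was at 78.1, 32.55 and 16.16 (-1.26). Cox4i1 was at 53.68, 27.94 and 18.58 (-0.94). These 3 genes also stood lowest of the complex against genes of like length, at -1.11, -0.81 and -0.67. Cox6c, the highest, had a ratio of -0.33 and stood at 0.12 against genes of like length. Cox7c was at 45.43 and 21.36 (-1.09), but 77.09% of the Control SMO level came from a transcript of 291 bases, and without it the level was 10.41 and the ratio 1.03. With all transcripts kept Cox7c stayed below 0, at -0.29 exon-weighted and -0.88 with aligned bases, short of the factor in both. Cox7c was unlisted in the sorted set.

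Complex IV has paired isoforms, of which one is made in most tissues and the other in few, such as Cox6a2, Cox7a1 and Cox8b in heart and skeletal muscle. The broadly expressed isoforms were listed in the whole tumor and the restricted ones were not. Cox6a1 was at 36.96 in the Control SMO pool and 33.09 in the LFPRLR SMO pool, Cox6b1 at 41.17 and 36.3, Cox7a2 at 24.2 and 19.83, Cox7a2l at 26.81 and 26.49 and Cox7b at 27.34 and 25.13, with ratios between -0.29 and -0.02. The broadly expressed isoforms Cox4i1 (-0.94) and Cox8a (-1.26), given above, had lower ratios than these. All 7 restricted isoforms (Cox4i2, Cox6a2, Cox6b2, Cox7a1, Cox7b2, Cox8b and Cox8c) were unlisted in the 3 sets of values. Among transcripts of like length (within 20%), the lowest listed FPKM was 1.159 with Control SMO for the length of Cox6a2 and 3.58 for that of Cox8b, so lower levels could not be seen. Skeletal muscle markers were listed for 6 of 10 genes with Control SMO and 7 with LFPRLR SMO.

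Complex V had a median ratio of -0.43, with 14 of 16 genes below Control SMO. The 3 genes of the c-ring, Atp5g1, Atp5g2 and Atp5g3, encode the same mature protein behind different mitochondrial targeting sequences. Atp5g1 was at 14.83 with Control SMO, 7.041 with LFPRLR SMO and 2.435 in the sorted set (log2 ratio -1.06). Atp5g3 was at 14.36, 5.156 and 8.315 (-1.46), and Atp5g2 at 23.64, 18.06 and 3.45 (-0.39). Their summed FPKM was 52.83 under Control SMO and 30.26 under LFPRLR SMO, and Atp5g2 held the first place in both whole tumor libraries and Atp5g3 in the sorted set. Against genes of like length the 3 genes stood at -0.80, -0.12 and -1.29, in the order Atp5g1, Atp5g2, Atp5g3.

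The 5 subunits of the catalytic head (F1) had a median of -0.14 with none past the factor on the summed FPKM. Atp5a1 stood at -0.14. Atp5b stood at 0.40, but 46.96% of its LFPRLR SMO level came from a transcript of 284 bases at its 5′ end, and its ratio without that transcript was -0.51. Its single Control SMO transcript spanned most of the gene, whereas LFPRLR SMO had 3 separate pieces, and the ratio of -0.51 still adds up 2 of them (37.72 and 10.46). The exon-weighted FPKM of Atp5b was 62.88 and 31.39, at the limit of a factor of 2 lower. Atp5e, the epsilon subunit, was at 15.04 and 12.76 (-0.24), with 1 LFPRLR SMO transcript of 280 bases. The other 8 listed subunits were all below Control SMO, from -0.99 to -0.26. Atp5j2, the highest of these, was at 54.35, 40.97 and 8.17 (-0.41).

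**Figure D4:**
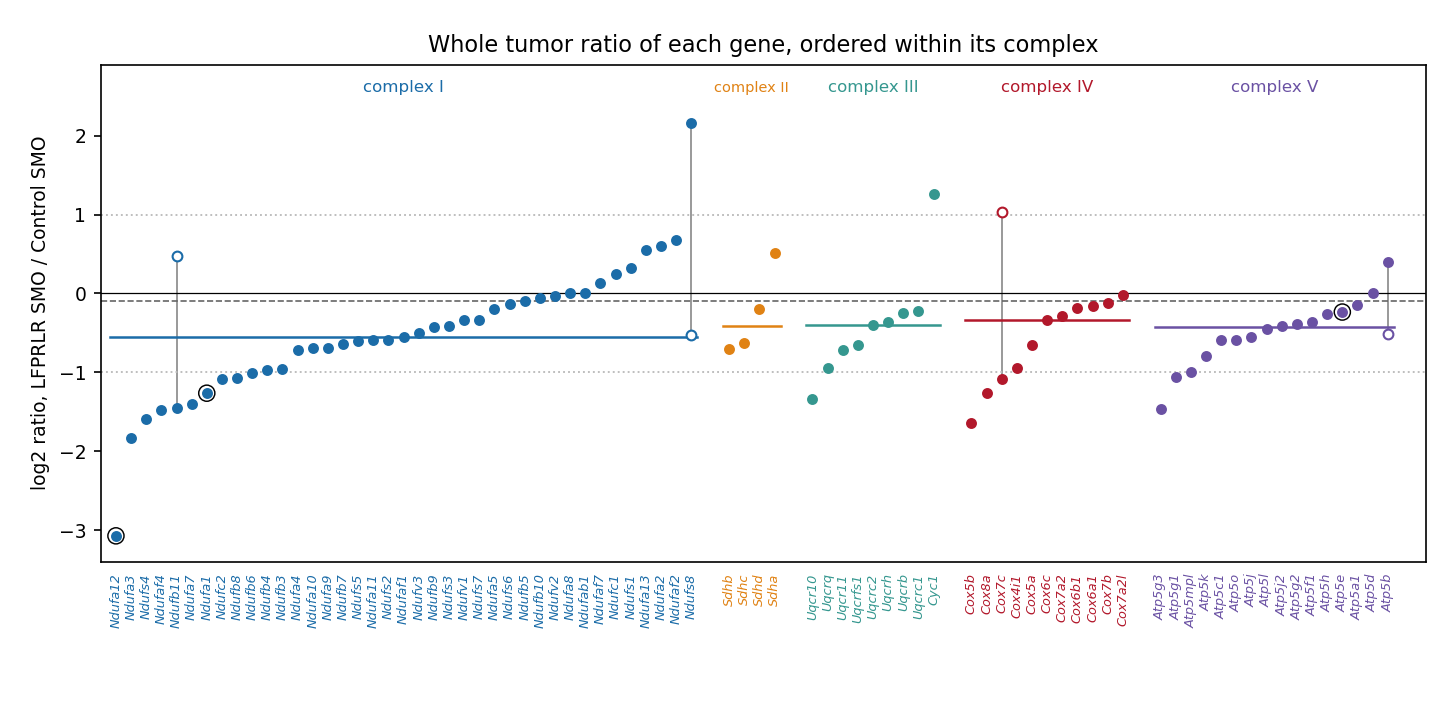
Log2 ratio of LFPRLR SMO over Control SMO in whole tumor for each of 79 genes, ordered within its complex, with colored lines at the complex medians, a dashed line at the median of all genes (-0.09) and dotted lines at a factor of 2. Open circles give the ratio without transcripts under 300 bases where it differs, circled points have no such ratio, and all but 13 genes lie below 0. The complex IV median (-0.33) is 0.12 against genes of like length.

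A set of 12 genes was unlisted in both whole tumor libraries. Besides the 7 complex IV isoforms these were Atp5s (coupling factor B), Ndufa4l2, Ndufb2, Ndufaf5 and Ndufaf6, and none of them was listed in the sorted set. Ndufa4l2 is the hypoxia-inducible paralog of Ndufa4. Ndufa6 was listed with LFPRLR SMO at 2.307 and in the sorted set at 5.973 but not with Control SMO. Ndufaf3 was listed with LFPRLR SMO only, at 0.8507, and Ndufaf8 with Control SMO only, at 2.048. At the annotated length of Ndufa6 (1141 bases) the lowest FPKM listed for a Control SMO transcript was 0.4504. The assembled Ndufa6 transcripts were shorter, at 702 bases with LFPRLR SMO and 560 in the sorted set. At the lengths of Cox6a2 (680 bases) and Cox6b2 (585 bases) the lowest Control SMO FPKM was 1.159 and 1.548. Levels below these could not be seen at such lengths.

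The sorted set listed 71 of the 80 pathway genes listed with Control SMO in whole tumor (88.75%). Of all 9328 protein-coding genes listed with Control SMO in whole tumor it listed 2874 (30.81%). These shares were not matched for level, and the median pathway gene lay above 86.5% of the genes listed with Control SMO. The highest sorted levels were those of Cox4i1 (18.58), Atp5b (18.49) and Cox8a (16.16). None of the 8 complex I assembly factors was listed. Chosen after their values were seen, Uqcrq at 11.08 in the sorted set against 7.235 and 3.713 in whole tumor, and Ndufa13 at 8.669 against 6.207 and 9.172, were the highest sorted genes of complexes III and I. The sorted levels cannot be assigned to Tregs from these values. T cell markers were unlisted, while all macrophage markers and some epithelial and fibroblast markers were listed.

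The promoters of respiratory genes are known for sites of NRF1, of ETS factors such as GABP, and of YY1. Promoter windows from 250 bases before to 50 bases after the transcription start (RefSeq, GRCm38.p6) were found for 76 of the 94 genes, as 81 windows. On either strand, the NRF1 core GCATGCGC was present in 14.8% of these windows and in 3.52% of all 21263 windows. The ETS core CCGGAAG was present in 22.2% against 11.6%, and the YY1 core AAGATGGCG in 9.88% against 1.83%. All 3 motifs were thus found in a larger share of the promoters of the pathway than of all promoters. The median ratio was -0.41 for 28 genes with a match to any motif and -0.60 for 38 genes with a window and no match. A match is a description of letters, and no binding was measured.

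Promoters of 3 genes that were lower by a factor of 2 are printed, chosen because they hold a match. Of the other genes lower by the factor, Ndufs4 alone held a match (YY1 core). All the rest, among them Cox5b, Ndufa3, Ndufa12 and Atp5g3, had a window and no match. The sequences run from 250 bases before to 30 bases after the start. They are read 5′ to 3′ on the strand of the gene, with motif matches in capitals. Cox8a (chr19:7217587-7217866, minus strand) and Ndufb6 (chr4:40279392-40279671, minus strand) hold the ETS core on the reverse strand, in Cox8a close to the start and in Ndufb6 far upstream. Ndufaf4 (chr4:24897833-24898112, plus strand) holds the NRF1 core, with matches on both strands that overlap at 1 place and a further match close to the start. Cox8a has 1 more ETS match beyond the printed stretch.
Cox8a: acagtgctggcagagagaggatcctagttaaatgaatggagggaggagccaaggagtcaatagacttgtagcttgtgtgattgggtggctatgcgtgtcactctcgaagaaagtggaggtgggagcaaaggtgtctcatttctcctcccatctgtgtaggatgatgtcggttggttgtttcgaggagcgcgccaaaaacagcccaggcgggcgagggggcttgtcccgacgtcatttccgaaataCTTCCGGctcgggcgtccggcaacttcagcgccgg
Ndufaf4: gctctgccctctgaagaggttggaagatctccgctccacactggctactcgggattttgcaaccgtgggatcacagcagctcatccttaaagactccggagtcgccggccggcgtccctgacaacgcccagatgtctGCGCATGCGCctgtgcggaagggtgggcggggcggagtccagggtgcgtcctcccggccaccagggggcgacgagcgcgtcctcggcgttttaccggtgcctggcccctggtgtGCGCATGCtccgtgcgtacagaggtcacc
Ndufb6: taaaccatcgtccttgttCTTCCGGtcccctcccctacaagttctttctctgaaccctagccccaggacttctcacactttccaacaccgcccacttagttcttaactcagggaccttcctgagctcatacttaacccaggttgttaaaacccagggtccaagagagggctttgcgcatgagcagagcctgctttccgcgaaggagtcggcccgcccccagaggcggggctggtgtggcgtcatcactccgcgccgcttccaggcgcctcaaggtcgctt

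Genes around the pathway were described from lists. Of the 13 subunits encoded by mitochondrial DNA, 0 were listed in any set, and 0 whole tumor transcripts were placed on the mitochondrial chromosome. The mitochondrial side of the 4 mixed complexes therefore could not be described. Carriers, porins and the uncoupling protein gene Ucp2 had a median ratio of -0.47, with 7 of 7 genes below Control SMO and 0 past a factor of 2. Of all genes 55.3% were below, and by the factor 10.9% were lower and 11.3% higher. Slc25a3, the phosphate carrier, was at 31.08 in the Control SMO pool and 18.86 in the LFPRLR SMO pool. Slc25a4 and Slc25a5, which exchange ADP and ATP, were at 36.35 and 28.67 and at 21.53 and 17.51. Genes of the citric acid cycle and pyruvate entry, which supply NADH and succinate, had a median of -0.40, with 13 of 17 (76.5%) below. Dlat, the acetyltransferase of pyruvate dehydrogenase, was the 1 gene lower by the factor (5.88%, under the share of all genes), at 6.057 and 2.125 (-1.47).

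Assembly factors outside the symbol rule had a median of -0.02 and 9 of 17 (52.9%) below Control SMO, near the 55.3% of all genes, and their difference from the subunits was not tested. Among these, Tmem186 (9.849 and 1.661) and Atpaf1 (8.422 and 1.719), which help to assemble complex I and the F1 head, were lower by a factor of 2, and Timmdc1 (3.451 and 7.115) and Cox15 (1.51 and 3.811) were higher, which is 11.8% each way and near the background. Cytochrome c (Cycs) was at 31.46 and 22.04 and the coenzyme Q enzyme Coq2 at 3.431 and 14.06, in a list of 4 genes with a median of -0.15. Regulators of mitochondrial genes had a median of 0.10, with 3 of 7 below and 0 past the factor. Nrf1 was at 3.671 and 5.191, Gabpa at 6.683 and 5.854, Yy1 at 8.692 and 7.441 and Tfam at 6.218 and 6.682. Ppargc1a, Ppargc1b and Esrra were unlisted.

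Of the 6 cell types with listed markers, the monocytes and macrophages alone had a median ratio below 0. Their markers were listed for 11 of 11 genes, with FPKM from 2.778 to 205.6 and a sum of 610.6 with Control SMO, and from 3.766 to 120.8 with a sum of 407.8 with LFPRLR SMO. Their median ratio was -0.58 (-0.40 against genes of like length) and 9 of 11 (81.8%) were below Control SMO, against 55.3% of all genes. Epithelial markers of the 4T1 cells were listed for 6 of 6 genes, with sums of 255 and 259.2 and a median of 0.05. Fibroblast markers (6 of 6) had sums of 730.9 and 728.3 and a median of 0.11, endothelial markers (3 of 5, Tek and Vwf unlisted) a median of 0.15 and skeletal muscle markers a median of 0.34. Of 6 adipocyte markers 1 was listed, Fabp4, at 17.19 and 17.69. The part of the macrophage markers in the lower levels of the pathway was not tested.

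**Figure D5:**
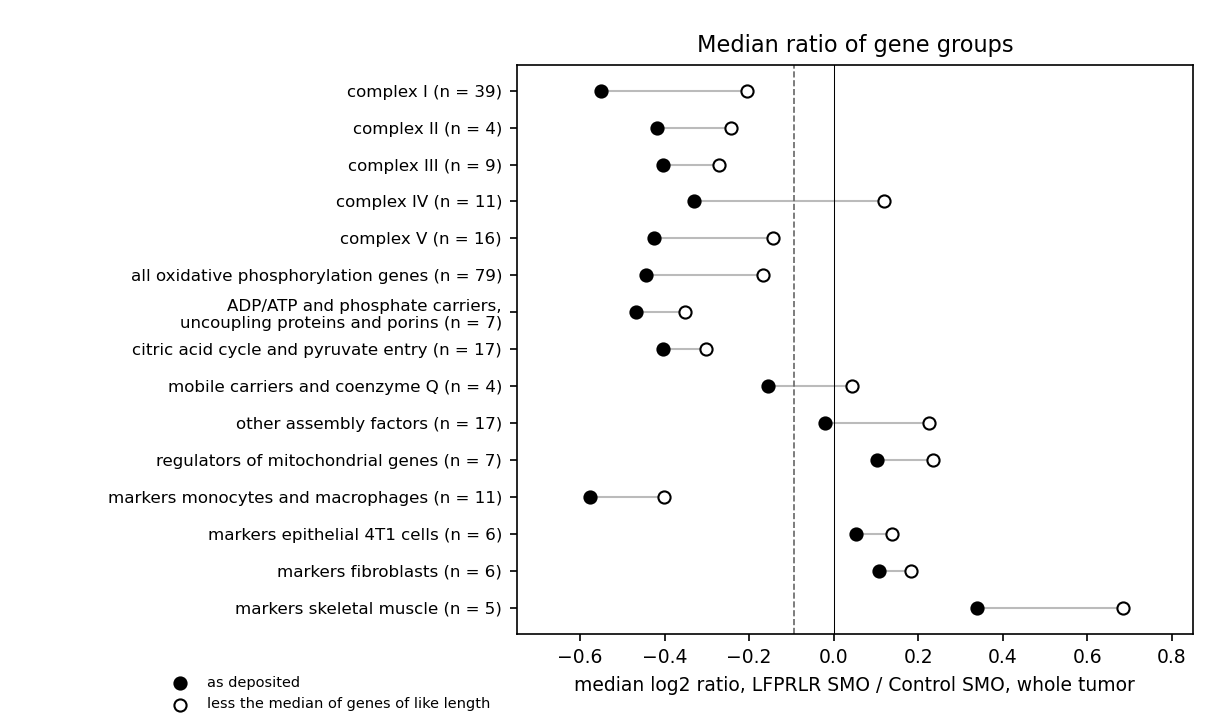
Median log2 ratio of LFPRLR SMO over Control SMO in whole tumor for the complexes, the lists around the pathway and the cell type markers (n, genes with a ratio), as deposited (filled) and after subtraction of the median of all genes of like assembled length (open), with a dashed line at the median of all genes (-0.09). All 5 complexes lie between -0.55 and -0.33 as deposited and between -0.27 and 0.12 after subtraction, where complex IV turns direction, and the macrophage markers lie at -0.58 and -0.40.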

How the data were processed

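RNAseq of whole tumors and sorted tumor Tregs was analyzed from transcript lists on mm10. The deposited FPKM of a transcript and its mean read depth were used. Per the submitters' processing notes the authors used Cufflinks (version not given in the sources used here), Cuffdiff 2.0.2, StringTie 1.2.3 and HISAT2 2.0.4, and which step made which list was read from the list itself. Whole tumor transcripts carry no gene names, and their FPKM rests on assembled length, so a short fragment with few reads can carry a high FPKM. Transcripts under 300 bases held 99.4% and 87.21% of summed whole tumor FPKM with Control SMO and LFPRLR SMO. Transcripts were assigned to GENCODE M21 (GRCm38) genes by a shared intron or by 50% of exon bases, which left 3815 of 22481 and 11666 of 31908 without a gene. In the sorted set, symbols in the list were used first (2325 transcripts, 86 under an older symbol). Reads shared with processed pseudogenes of these genes could not be separated.

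Transcript FPKM were summed per gene. Ratios used a pseudocount of 0.1, which understates changes of low genes, and were formed for genes listed in both libraries with an FPKM of at least 1 in 1 of them. Calls used a factor of 2. With 1 pooled library per group, no test was run. Genes and lists were chosen with earlier results of these data known. Named were the 3 highest genes by mean whole tumor FPKM in each complex, all past the factor, all unlisted in every library or in 1 whole tumor library, those whose call depends on transcripts under 300 bases, and the isoform families. Results were recomputed under 16 other settings, of which 2 (like length, aligned bases) were added after seeing the data. A value was called moved beyond 1.5-fold. Counting was tested on simulated data. Python 3.11.15, numpy 2.4.6, scipy 1.17.1 and matplotlib 3.10.9 were used.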

Additional observations from a re-analysis of the deposited data

How the results depend on the processing

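No paired analysis was possible because each group is 1 pooled library, and for the same reason no library could be left out. The median ratio of the pathway genes stayed below 0 under every alternative, from -0.59 with the most abundant transcript only to -0.17 against genes of like length. The complex IV median turned to 0.12 on that scale. Where at least 80% of the longest annotated transcript was covered in both libraries, complex II (2 genes) stood at 0.15 and complex V (1 gene, Atp5b, as the sum of separate pieces) at 0.40. Genes lower by a factor of 2, 16 as reported, numbered 8 of 76 with TPM over transcripts of at least 300 bases (10.5%, against 8.15% of all genes), 9 of 75 exon-weighted (12% against 5.54%), 3 of 16 with 80% covered (18.8% against 8.88%), 7 of 79 against like length (8.86% against 8.9%) and 10 of 79 with aligned bases (12.7% against 6.86%). The excess over all genes was thus gone against like length. Genes higher, 2 as reported (2.53%, against 11.3% of all genes), numbered 1 with the most abundant transcript (1.27% against 5.83%). They numbered 0 exon-weighted (against 1.46% of all genes), with a shared intron only (7.3%), with 80% covered (9.8%) and with aligned bases (2.14%). Against like length they numbered 4 (5.06% against 13.3%). A factor of 1.5 gave 36 lower (against 22.6% of all genes) and 4 higher (against 21.5%). A factor of 3 gave 4 lower and 1 higher, and no share of all genes is given for that factor. Exon-weighted median FPKM was 6.996 with Control SMO and 5.198 with LFPRLR SMO. Without transcripts under 300 bases Cox7c turned to 1.03, Ndufb11 to 0.47 and Ndufs8 to -0.53. On the TPM scale they were at 1.18, 0.62 and -0.39, and Ndufs8 was at -0.53 with a shared intron only. These turns come from leaving out the short transcripts named above, and exon-weighted or with aligned bases these genes did not turn. For the counts and the complexes the cause was not tested. TPM moved the median of all genes to 0.06 and aligned bases moved it to -0.25, and the pathway stood at -0.29 and -0.58 on these scales. With no read counts, the depth of single genes is known only as a mean, and the lowest listed whole tumor FPKM was 0.211 with Control SMO and 0.247 with LFPRLR SMO.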

Other observations

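The gene Ndufb1-ps, annotated as a bidirectional promoter lncRNA and so outside the rule on protein-coding genes, was listed at an FPKM of 97.77 with Control SMO and 9.876 in the sorted set and was unlisted with LFPRLR SMO. No ratio was formed for it. The 12 processed pseudogenes named after genes of the pathway were unlisted in all sets.

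Among genes chosen after their values were seen, Ndufa11 stood apart between the whole tumor and the sorted set, at 8.569 with Control SMO, 5.646 with LFPRLR SMO and 0.4735 in the sorted set, the lowest sorted level of the pathway. Its assembled transcript was 2661 bases long in the sorted set, against 541 with Control SMO and 511 with LFPRLR SMO. These levels per length therefore rest on unlike transcripts. Ucp2, an uncoupling protein of the inner membrane, was at 17.1 with Control SMO, 12.2 with LFPRLR SMO and 29.11 in the sorted set. It was the highest gene of the carrier list in the sorted set.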
